A study of Mus musculus with 6 samples.

Results

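The 10 genes described here encode ADAM family proteins of male germ cells, chaperones of the endoplasmic reticulum that fold them, and a GPI-anchored surface protein. The ADAM genes are Adam1a, Adam2, Adam3, Adam5, Adam18 and Adam32, and the chaperones are Clgn, Calr3 and Pdilt. Tex101 encodes the surface protein held by a GPI anchor. The genes were taken by name, and all 10 were found among the 54532 Ensembl genes of the deposited files. RNA was sequenced from adult mouse testis cells (about postnatal day 80), purified by STA-PUT sedimentation as pachytene cells, the spermatocytes of mid-meiotic prophase. The groups were WT, MAPS KO (KO, without the protein MAPS) and MAPS EE-KO (EE_KO), which carries the MAPSEE allele and whose genotype is labelled as MAPS overexpression on the KO background, so that KO and EE_KO share the MAPS deletion. Each group had 2 libraries, and 3 mice of each genotype served for the purification over 2 independent experiments. What drives MAPS in EE_KO, which bases were deleted in KO and whether a library pools mice was not given in the sources used here.

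ADAM proteins are membrane proteins with a metalloprotease and a disintegrin domain. In the male germ line several of them are made as precursors, are folded and paired in the endoplasmic reticulum, and reach the sperm surface after processing. ADAM1A and ADAM2 form fertilin, and ADAM3 is needed for sperm to pass from the uterus into the oviduct and to bind the egg coat. Sperm of male mice that lack Clgn, Calr3, Pdilt or Tex101 are known to be short of mature ADAM3.

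Levels are FPKM, read counts scaled by gene length and library size, as deposited. Log2 changes are differences of log2(FPKM + 1) with their standard error (SE), and the added 1 FPKM understates changes of genes near 0. Adjusted p comes from limma, with the Benjamini-Hochberg method over 15907 genes with a mean of at least 1 FPKM, and a gene was called changed below 0.05. The labels do not say that the 2 libraries of a group came from separate animals, so p-values reflect the spread between libraries alone, which may be technical.

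The MAPS gene, 1700102P08Rik, read 157 and 150.2 FPKM in the WT libraries, 7.97 and 10.1 in KO and 109 and 82.2 in EE_KO. Cell type markers differed between the groups. The summed level of 12 pachytene markers was 5370.0 to 5946 FPKM in WT, 226 to 268 in KO and 5110.0 to 5475 in EE_KO, and none of the markers listed for any cell type was at 0 in any library. All 12 fell in KO (Sycp3 was not called with TPM, voom or quantile normalization), as did 8 of 8 spermatid markers, which summed to 1456 to 2931, 22.4 to 22.9 and 1749 to 2444 FPKM. All 8 Sertoli markers rose in KO (sums 206 to 207, 2757 to 2926 and 187 to 340.0 in WT, KO and EE_KO), as did all 6 Leydig markers (56.4 to 105, 2073 to 2156 and 81.3 to 172), all 6 spermatogonial markers (19.4 to 20.7, 186 to 228 and 17.7 to 22.4), and the 2 leukocyte and 2 peritubular or endothelial markers high enough to test. In KO, 47.1% of all genes tested were called lower than in WT and 37.7% higher. The pachytene sum is mostly that of a few abundant genes, such as Ldhc, which kept 2.28% of its WT mean in KO. The synaptonemal gene Sycp3 kept 66.2% and Mybl1, a transcription factor of pachytene cells, 36.6%, the highest shares of the 12. Those of the other pachytene markers ran from 1.74% (Nme5) to 16.4% (Hist1h1t). The part of these marker differences in the results that follow was not tested. In bulk RNA, fewer cells of a type and less RNA per cell cannot be told apart.

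In WT the ADAM genes and Clgn were among the most abundant transcripts. Adam5 ranked 59th and Adam3 60th of the 15907 genes by WT mean, Clgn 88th, Adam2 108th and Adam32 115th. Tex101 ranked 486th and Adam18 531st, while Pdilt (2851st), Calr3 (5447th) and Adam1a (7870th) lay lower. Adam5 and Adam3, at 441 ± 49.9 and 438 ± 57.5 FPKM (mean ± SD, n = 2), did not differ beyond their spread. Clgn (326 ± 25.8), Adam2 (297 ± 33.1) and Adam32 (288 ± 38.4) followed, each within the spread of its neighbour. Tex101 (112 ± 5.92) and Adam18 (106 ± 19.7) formed a further pair, and Pdilt (24.6 ± 6.47), Calr3 (10.5 ± 2.89) and Adam1a (5.35 ± 1.70) had libraries that overlapped with no other of the 10. The 10 genes together held 0.655% and 0.591% of all FPKM in the WT libraries, 0.0487% and 0.0678% in KO, and 0.558% and 0.623% in EE_KO.

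**Figure D1:**
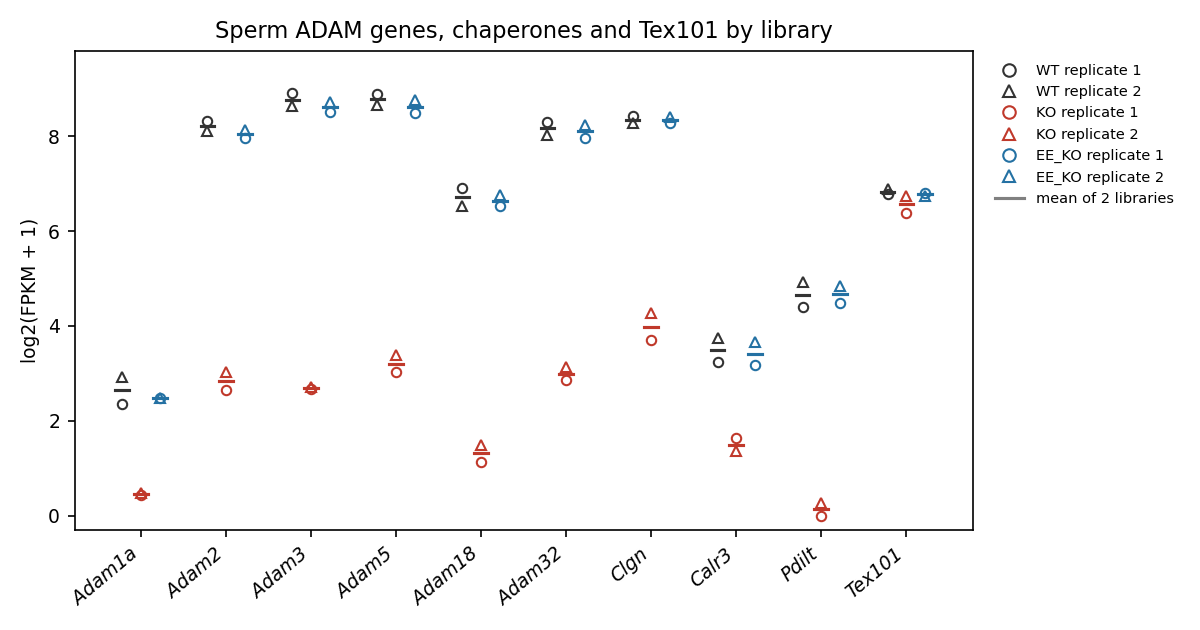
Level of each gene as log2(FPKM + 1) on the vertical axis, with 1 symbol per library (circles replicate 1, triangles replicate 2) and a bar for the mean of the 2 libraries of WT (black), KO (red) and EE_KO (blue). The KO symbols lie far below the other groups for 9 genes and close to them for Tex101, and the ranges of WT and EE_KO overlap for each of the 10 genes.

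In KO against WT, 9 of the 10 genes fell and Tex101 was not called (47.1% of all genes tested were called lower). The median change of the 10 genes was -4.85, beside -0.26 for all genes tested. Changes of the 6 ADAM genes ran from -6.08 to -2.18, and those of the 3 chaperones from -4.52 to -1.99. Both KO libraries lay below both WT libraries for each of the 10 genes, Tex101 included (51.1% of all genes tested).

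Adam3 (ENSMUSG00000031553, chr8:24677225-24725852, minus strand in GRCm38) encodes the ADAM protein whose maturation depends on the chaperones of the set. It read 478 and 397 FPKM in the WT libraries, 5.35 and 5.56 in KO, and 362 and 418 in EE_KO. The KO libraries stood at 1.25% of the WT mean and lay close to each other, while the EE_KO libraries overlapped the WT ones. The log2 change was -6.08 (SE 0.13, adjusted p = 3.84e-07), and 13 of the 15907 genes fell further.

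Adam2 (ENSMUSG00000022039, chr14:66027329-66077733, minus strand) encodes the fertilin beta chain, the partner of ADAM1A and ADAM1B. It read 320.4 and 274 FPKM in WT, 5.23 and 7.12 in KO, and 248 and 280.2 in EE_KO. KO stood apart from both other groups, at 2.08% of the WT mean (log2 change -5.38, SE 0.16, adjusted p = 4.91e-07). Adam5 (ENSMUSG00000031554, chr8:24727093-24824369, minus strand), the neighbour of Adam3 in the genome, read 476 and 405 in WT, 7.11 and 9.43 in KO, and 357 and 433 in EE_KO. It kept 1.88% of its WT mean in KO (log2 change -5.58, SE 0.17, adjusted p = 5.09e-07), again with no overlap.

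Adam18 (ENSMUSG00000031552, chr8:24602246-24674755, minus strand) read 119.8 and 91.9 FPKM in WT, 1.18 and 1.83 in KO, and 91.0 and 107 in EE_KO. Adam32 (ENSMUSG00000037437, chr8:24836140-24948804, minus strand) read 315 and 260.5 in WT, 6.21 and 7.81 in KO, and 249.5 and 299 in EE_KO. Both genes were low in each KO library, at 1.42% and 2.44% of WT, with no overlap between KO and the other groups. Their log2 changes in KO were -5.42 (SE 0.18, adjusted p = 7.67e-07) and -5.17 (SE 0.16, adjusted p = 5.34e-07).

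Adam1a (ENSMUSG00000072647, chr5:121518576-121545482, minus strand), the fertilin alpha chain of the endoplasmic reticulum, had the lowest WT level of the set. Its FPKM was 4.15 and 6.55 in WT, 0.363 and 0.391 in KO, and 4.60 and 4.55 in EE_KO. The KO libraries kept 7.05% of WT (log2 change -2.18, SE 0.20, adjusted p = 4.62e-05), and the EE_KO libraries lay between the 2 WT libraries. In GENCODE M21 the gene overlaps Mapkapk5 and Gm42878 on its own strand and Tmem116 on the other. Mapkapk5 read 0.738 and 1.16 FPKM in WT and 2.30 and 3.39 in KO, opposite to Adam1a, and Tmem116 read 9.44 and 8.27 in WT and 1.30 and 1.65 in KO. With the strand of the reads and the counting of shared exons not given in the sources used here, the level of Adam1a is uncertain.

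Clgn (ENSMUSG00000002190, chr8:83389867-83428552, plus strand) encodes calmegin, the germ cell relative of calnexin. It read 344 and 308 FPKM in WT, 12.0 and 18.3 in KO, and 309 and 338 in EE_KO. The KO libraries stood apart from the other groups, at 4.65% of WT (log2 change -4.36, SE 0.19, adjusted p = 1.78e-06). Adam3 lay lower relative to Clgn in KO: their log2 ratio (of FPKM + 1, as for all ratios here unless stated) was 0.47 and 0.37 in WT, -1.03 and -1.56 in KO, and 0.23 and 0.31 in EE_KO.

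Pdilt (ENSMUSG00000030968, chr7:119486587-119523489, minus strand) encodes a testis protein disulfide isomerase that works with calmegin. It read 20.0 and 29.2 FPKM in WT and 21.4 and 27.7 in EE_KO, and in KO was listed at 0 in replicate 1 and at 0.202 in replicate 2. Those KO values stand for 0 and 8 recovered reads, against 640 and 1008 in WT. The KO mean was 0.410% of WT, the smallest share in the set. Its log2 change was -4.52 (SE 0.22, adjusted p = 2.75e-06) with 1 FPKM added, and -7.13 with 0.1 FPKM added.

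Calr3 (ENSMUSG00000019732, chr8:72424176-72443870, minus strand) encodes calsperin, the germ cell relative of calreticulin. It read 8.41 and 12.5 FPKM in WT, 2.10 and 1.58 in KO, and 8.01 and 11.6 in EE_KO. It kept 17.6% of WT in KO, the highest share among the 9 genes that fell, and its KO libraries lay below all others (log2 change -1.99, SE 0.24, adjusted p = 0.000170).

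Tex101 (ENSMUSG00000062773, chr7:24668007-24676675, minus strand) stood at 83.8% of WT in KO. It read 108 and 117 FPKM in WT, 82.9 and 106 in KO, and 111 and 106 in EE_KO, so the KO libraries were the lowest but close to the rest. The log2 change was -0.26 (95% confidence interval -0.58 to 0.06, SE 0.13, adjusted p = 0.105). It was positive with TPM (0.17), with voom on recovered reads (0.12) and with quantile normalization (0.54, adjusted p = 0.0169), and without KO replicate 2 it was a called fall (-0.44, adjusted p = 0.0129). The median change of all genes moved with these scales too, from -0.26 on the deposited scale to -0.12 with median-of-ratios scaling, 0.04 with quantile normalization, 0.08 with voom and 0.12 with TPM.

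A ratio of 2 genes within a library, with nothing added to the FPKM, does not depend on the scaling of libraries by a common factor. Without a pseudocount, the log2 ratio of Tex101 to Adam3 was -2.14 and -1.77 in WT, 3.95 and 4.25 in KO, and -1.70 and -1.98 in EE_KO, so that Tex101 was the higher gene of the pair in KO alone. Tex101 made up 4.93% and 6.14% of the summed FPKM of the 10 genes in WT, 67.7% and 66.9% in KO and 6.32% and 5.23% in EE_KO. For a single value compared between 2 and 2 libraries, the smallest two-sided exact permutation p is 0.333, which this ratio reached.

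RefSeq's table of promoter windows (250 bases before to 50 after a gene's start, GRCm38.p6) held 4 of the 10 genes: Adam1a, Calr3, Pdilt and Tex101. Adam2, Adam3, Adam5, Adam18, Adam32 and Clgn had no entry. Shown are Tex101, which was not called in KO, and 2 chaperones that fell, each 5′ to 3′ on the gene's own minus strand, at chr7:24672001-24672300 (Tex101), chr8:72443729-72444028 (Calr3) and chr7:119523433-119523732 (Pdilt). Capitals mark the letters of 3 short motifs searched on both strands: GGCAGTT (MYB-type), TGACG (CRE half-site) and GTTGCC (RFX half-site).
Tex101: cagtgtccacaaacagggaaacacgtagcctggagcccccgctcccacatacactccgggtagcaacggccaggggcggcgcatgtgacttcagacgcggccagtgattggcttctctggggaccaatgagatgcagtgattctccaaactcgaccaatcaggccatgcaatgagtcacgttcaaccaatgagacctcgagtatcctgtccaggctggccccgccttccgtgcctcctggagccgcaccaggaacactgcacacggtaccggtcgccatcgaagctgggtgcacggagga
Calr3: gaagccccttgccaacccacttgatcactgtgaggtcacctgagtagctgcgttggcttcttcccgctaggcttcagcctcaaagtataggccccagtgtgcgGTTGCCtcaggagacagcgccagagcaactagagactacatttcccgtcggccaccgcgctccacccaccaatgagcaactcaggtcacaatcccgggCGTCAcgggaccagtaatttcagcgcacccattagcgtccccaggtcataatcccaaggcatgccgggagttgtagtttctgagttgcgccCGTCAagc
Pdilt: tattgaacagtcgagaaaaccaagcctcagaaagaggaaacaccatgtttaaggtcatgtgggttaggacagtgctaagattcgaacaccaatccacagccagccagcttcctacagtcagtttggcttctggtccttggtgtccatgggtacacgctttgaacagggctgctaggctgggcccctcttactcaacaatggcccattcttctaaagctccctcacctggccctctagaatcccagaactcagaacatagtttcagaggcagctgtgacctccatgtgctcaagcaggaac
The Calr3 window held GTTGCC with its first base at -147 from the start, on the gene's strand, and TGACG on the opposite strand at -49 and 43. The table has a second window for Calr3, at chr8:72435107-72435406, which held GTTGCC at -49 and neither other motif. None of the 3 motifs was found in the windows of Tex101, Pdilt or Adam1a. Of all 32851 windows 4.12% held GGCAGTT, 20.8% TGACG and 12.5% GTTGCC. GC content was 60.3% with 19 CpG in Tex101 and 58.0% with 16 in the Calr3 window shown, but 48.3% with 3 in the second Calr3 window, 50.3% with 3 in Pdilt and 39.7% with 4 in Adam1a (medians of all windows 52.7% and 7). The RefSeq start of Tex101 lies 4625 bases inside the GENCODE gene and that of Adam1a 23787 bases inside, so these windows may not be the starts in use.

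The abundant ADAM genes kept nearly fixed proportions in WT and EE_KO, groups between which only 0.0377% of all genes tested were called changed. The log2 ratio of Adam5 to Adam3 was -0.01 and 0.03 in WT, 0.35 and 0.67 in KO and -0.02 and 0.05 in EE_KO. For Adam2 over Adam3 it was -0.58 and -0.54, -0.03 and 0.31 and -0.54 and -0.58, and for Adam32 over Adam3 -0.60 and -0.61, 0.18 and 0.43 and -0.53 and -0.48. Adam3 thus lay lower relative to these 3 genes in both KO libraries, and each ratio reached the smallest exact p of 0.333. Adam18 over Adam3 was 0.66 higher in KO with 1 FPKM added but 0.16 higher, with overlapping libraries, with none added.

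Adam18, Adam3, Adam5 and Adam32 lie in a row on chromosome 8 (24602246 to 24948804, all on the minus strand), with 2.5, 1.2 and 11.8 kb between neighbours. Adam9, a widely expressed ADAM gene on the same strand, follows 0.807 kb beyond Adam32. It read 3.66 and 4.17 FPKM in WT, 32.4 and 27.1 in KO, and 4.68 and 3.28 in EE_KO. Adam9 rose by 2.64 in KO (SE 0.18, adjusted p = 1.03e-05) next to 4 genes that fell, and the log2 ratio of Adam32 to Adam9 went from 6.08 and 5.66 in WT to -2.21 and -1.67 in KO. Sertoli and Leydig markers rose as well, and their part in the rise of Adam9 was not tested.

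Of 26 genes reaching within 500 kb of Adam3, 8 were tested. In KO the 4 ADAM genes of the row, Tm2d2 and the small nucleolar RNA Gm26208 fell, and Adam9 and Tacc1 rose. Over all genes tested, 47.1% were called lower and 37.7% higher. Tacc1 changed by 1.26 (SE 0.12, adjusted p = 4.54e-05). The change of Tm2d2 (-0.62, SE 0.12, adjusted p = 0.00208) was not called with TPM (-0.20), voom (-0.25) or quantile normalization (-0.01). Gm26208, which lies within Adam3 on the opposite strand, had 7 and 10 recovered reads in the WT libraries and was listed at 0 in both KO libraries. With the strand of the reads not given, whether its reads came from Adam3 transcripts cannot be told.

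**Figure D2:**
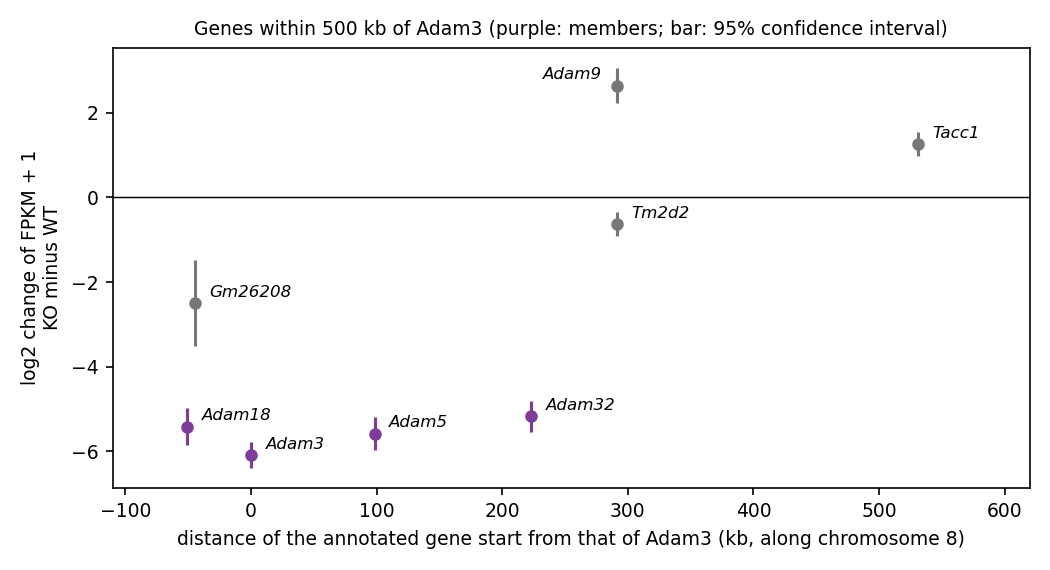
Log2 change of FPKM + 1 in KO against WT (vertical axis, bars 95% confidence intervals) of the 8 tested genes reaching within 500 kb of Adam3, by the distance of their annotated start from that of Adam3 (kb). The 4 ADAM genes of the row (purple) lie between -6.08 and -5.17, and Adam9 beyond them lies at 2.64.

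In the wider ADAM family, 14 of 16 other genes listed here as testis genes were tested. All 14 fell in KO (median -2.73), beside 47.1% of all genes tested called lower. Adam7 and Adam28 of this list, at no more than 0.0233 FPKM in any library, WT included, were too low to test. These values give no ground for listing them as testis genes. Adam1b, the fertilin alpha chain of the sperm surface, fell from 69.7 ± 10.3 to 1.32 ± 0.547 FPKM (SD, n = 2, log2 change -4.94, SE 0.18, adjusted p = 1.03e-06) and Adam30 from 34.2 ± 7.04 to 0.787 ± 0.155. Of 11 ADAM genes listed here as widely expressed, 7 were tested. Of these, 6 rose (37.7% of all genes tested were called higher) and Adam11 fell, to 14.2% of WT (log2 change -2.01, SE 0.14, adjusted p = 1.27e-05). Adam10, the sheddase of Notch and other surface proteins, rose from 2.85 ± 0.315 to 39.1 ± 12.5 FPKM and Adam17, which releases TNF, from 4.91 ± 0.103 to 12.7 ± 0.0205. The rise of Adam15 (0.56, adjusted p = 0.0212) was not called without KO replicate 2 (0.49, adjusted p = 0.109), KO replicate 1 (0.63, adjusted p = 0.0567) or WT replicate 1 (0.43, adjusted p = 0.101). A gene near 0 in 1 group passes the filter through the other group alone, so these counts only describe the lists.

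Of the summed FPKM of 33 ADAM genes, Adam2, Adam3, Adam5, Adam18 and Adam32 held 89.1% and 86.8% in WT, 18.2% and 26.4% in KO, and 87.2% and 88.4% in EE_KO. The 11 genes listed as widely expressed held 1.16% and 1.42% in WT, 79.6% and 70.7% in KO and 1.59% and 1.15% in EE_KO.

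**Figure D3:**
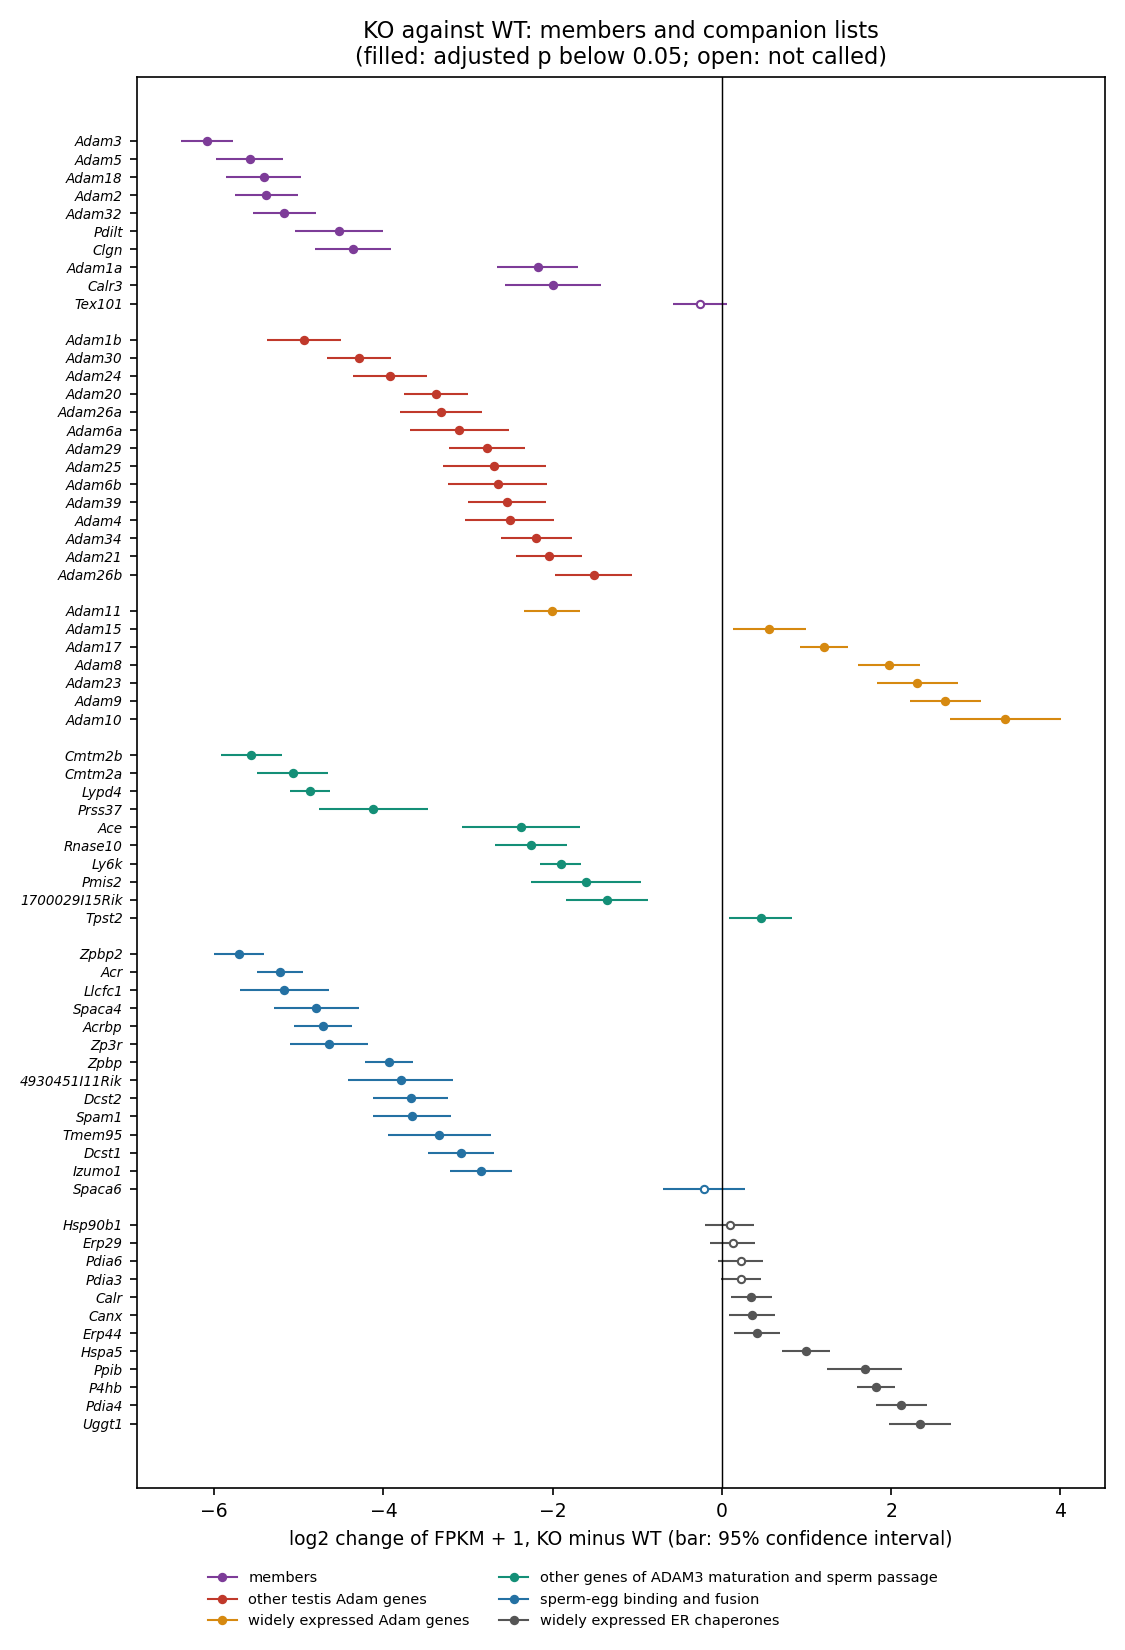
Log2 change of FPKM + 1 in KO against WT (horizontal axis, bars 95% confidence intervals) for the 10 genes (members) and the tested genes of 5 companion lists, filled where the adjusted p was below 0.05. The testis lists lie to the left of 0 except Tpst2, with Tex101 and Spaca6 near 0, and the widely expressed lists lie to the right except Adam11.

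Widely expressed relatives of the testis chaperones rose in KO. Canx (calnexin) read 53.4 and 45.9 FPKM in WT, 66.6 and 61.0 in KO, and 53.9 and 57.0 in EE_KO, a rise in KO of 0.36 (SE 0.11, adjusted p = 0.0207). Calr (calreticulin) rose by 0.35 (SE 0.10, adjusted p = 0.0151), from 228 ± 17.2 to 290.3 ± 0.452, and the disulfide isomerase P4hb by 1.82 (SE 0.09, adjusted p = 3.61e-06), from 25.8 ± 0.691 to 93.6 ± 0.150. Without WT replicate 2 neither Canx (0.25, adjusted p = 0.113) nor Calr (0.27, adjusted p = 0.0916) was called, nor was Canx without KO replicate 1 (0.30, adjusted p = 0.0926).

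Of 12 widely expressed chaperones of the endoplasmic reticulum 8 rose and 4 were not called in KO (median 0.39). All 12 were called higher with TPM, quantile normalization or voom. Over all genes tested, 37.7% were called higher on the deposited scale. With TPM 7000 of 15907 genes were called higher, with quantile normalization 6820 of 15907 and with voom 6906 of 15903. Uggt1, the glucosyltransferase that checks folding, rose by 2.34 (SE 0.15, adjusted p = 9.70e-06) and the disulfide isomerase Pdia4 by 2.12 (SE 0.13, adjusted p = 6.47e-06). Hsp90b1, the HSP90 of the endoplasmic reticulum, stood at 158 ± 22.3 FPKM in WT and 168 ± 6.54 in KO and was not called on the deposited scale.

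Within each library the log2 ratio of Clgn to Canx was 2.67 and 2.72 in WT and -2.38 and -1.68 in KO, with a mean of 2.52 in EE_KO. Clgn was the more abundant of the pair in WT and EE_KO and the less abundant in KO. The ratio of Calr3 to Calr was -4.68 and -4.01 in WT, -6.56 and -6.82 in KO, and -4.52 and -3.98 in EE_KO, so Calr was the higher gene in every library. Pdilt over P4hb stood at -0.37 and 0.20 in WT, -6.56 and -6.30 in KO, and -0.43 and 0.02 in EE_KO. Pdilt was at 0 and 0.202 FPKM in KO, so the added 1 FPKM largely sets its KO ratios. With none added, its ratio was undefined in KO replicate 1 and -8.86 in replicate 2. Each difference between KO and WT (-4.72, -2.34 and -6.35) reached the smallest exact p of 0.333. With none added, the differences were -4.82 for Clgn over Canx and -2.84 for Calr3 over Calr. Canx, Calr and P4hb are also made by the somatic cells whose markers rose in KO, and the part of those cells in the ratios was not tested.

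**Figure D4:**
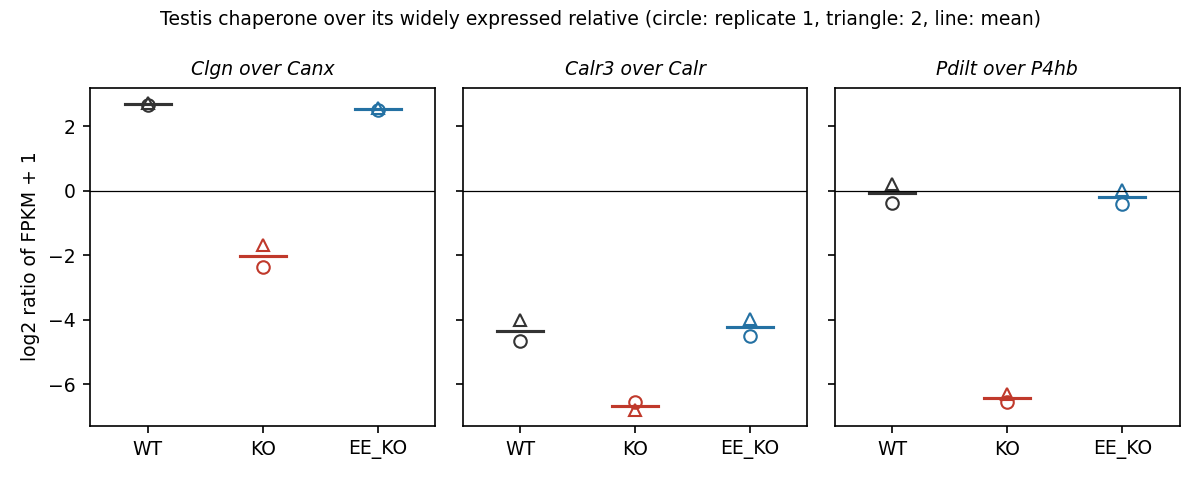
Log2 ratio of FPKM + 1 of a testis chaperone to its widely expressed relative (vertical axis) in each library by group (circle replicate 1, triangle replicate 2, line the mean). In all 3 pairs the KO libraries lie below the WT and EE_KO libraries, with KO minus WT means of -4.72, -2.34 and -6.35 from left to right.

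Of 11 other genes of ADAM3 maturation and sperm passage, 10 were tested, and Pgap1 was too low to test. In KO 9 fell and Tpst2 rose (median -2.32), beside 47.1% of all genes tested called lower and 37.7% higher. Cmtm2b fell from 400.3 ± 53.1 to 7.51 ± 1.41 FPKM (log2 change -5.56, SE 0.15, adjusted p = 4.72e-07) and Cmtm2a from 174 ± 26.3 to 4.22 ± 1.08. Lypd4, a GPI-anchored protein of the Ly6/uPAR family like TEX101, fell from 339.9 ± 25.7 to 10.7 ± 0.122 FPKM (log2 change -4.86, SE 0.10, adjusted p = 3.84e-07). Ly6k, a partner of TEX101 named after its values were seen, fell from 79.4 ± 0.891 to 20.5 ± 1.40. Tex101 thus lay higher relative to both in KO: its mean log2 ratio to Lypd4 was -1.59 in WT and 3.02 in KO, and to Ly6k 0.50 and 2.14. Tpst2, a tyrosine sulfotransferase, rose by 0.46 (SE 0.16, adjusted p = 0.0282), a call lost without KO replicate 1 (0.34, adjusted p = 0.163) or WT replicate 1 (0.37, adjusted p = 0.114).

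Of 14 genes of sperm-egg binding and fusion, 13 fell in KO (47.1% of all genes tested were called lower). Spaca6 was not called, and the median change of the 14 was -3.86. Zpbp2, a zona pellucida binding protein of the acrosome, fell from 241 ± 33.0 to 3.62 ± 0.252 FPKM and Acr, the acrosomal protease acrosin, from 147 ± 13.4 to 2.96 ± 0.0192. Spaca6 stood at 2.71 ± 0.970 in WT and 2.15 ± 0.147 in KO (log2 change -0.21, SE 0.20, adjusted p = 0.359), with a called fall without WT replicate 1 (-0.48, adjusted p = 0.0407) and a positive value with TPM (0.13).

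In EE_KO against WT none of the 10 genes was called by limma on the FPKM or on recovered reads with voom, and each 95% confidence interval included 0, so that 0 of the 10 had an unadjusted p below 0.05. Of all genes tested 0.0377% were called and 7.22% had an unadjusted p below 0.05. The libraries of the 2 groups overlapped for all 10 genes, and for all genes tested 36.2% did not overlap. The changes ranged from -0.17 for Adam2 (95% confidence interval -0.54 to 0.21) to 0.01 for Pdilt (-0.51 to 0.53), with a median of -0.08. Adam3 stood at 89.1% of WT (-0.16, interval -0.47 to 0.14), Clgn at 99.3%, Calr3 at 94.0% (-0.08, interval -0.65 to 0.49) and Tex101 at 96.6%. Changes within these intervals were not detectable with 2 libraries a group. No gene of the 5 companion lists was called in this comparison. Before adjustment, the 95% confidence intervals of Ly6k (-0.34, interval -0.58 to -0.10) and Rnase10 (-0.44, interval -0.87 to -0.02) left out 0. The EE_KO libraries of both lay below the WT ones. The intervals of the other tested genes of these lists included 0.

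In EE_KO against KO the 9 genes that fell in KO were called higher and Tex101 was not called (46.8% of all genes tested were called higher). This comparison shares the KO libraries with that of KO against WT, so its values are given side by side with those above. Adam3 was 5.92 above KO (SE 0.13, adjusted p = 4.61e-07), Clgn 4.36 (SE 0.19, adjusted p = 1.94e-06), Pdilt 4.53 (SE 0.22, adjusted p = 2.94e-06) and Calr3 1.91 (SE 0.24, adjusted p = 0.000218). Of the widely expressed relatives, Calr (-0.53, SE 0.10, adjusted p = 0.00225) and P4hb (-1.69, SE 0.09, adjusted p = 5.36e-06) were called lower. Canx was not called (-0.20, SE 0.11, adjusted p = 0.142). For Tex101 the difference was 0.21 (interval -0.11 to 0.53, SE 0.13, adjusted p = 0.175). With quantile normalization it was called lower (-0.49, adjusted p = 0.0254), and without KO replicate 2 higher (0.39, adjusted p = 0.0204).

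Likeness of pattern was measured as the Euclidean distance between centred log2(FPKM + 1) values over the 6 libraries, where 0 is the same pattern. Among the 10 genes the closest pairs were Adam2 with Adam18 (0.163), Adam5 with Adam18 (0.198) and Adam2 with Adam32 (0.232). Adam1a lay closest to Calr3 (0.452) and Clgn to Pdilt (0.587), whereas the nearest of the 10 to Tex101, Calr3, lay at 2.09. Outside the set, the protein-coding genes closest to the mean pattern of the 10 were 4930519P11Rik (0.103), Limd2 (0.152), Nxn (0.179), Oscp1 (0.181) and Shcbp1l (0.181). Most genes differed between KO and the other groups, so such likeness over 6 libraries is a description only.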

How the data were processed

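Per the file headers, the deposited tables give FPKM for 54532 Ensembl genes in each of 6 libraries. The labels name a SMARTer library kit and an input of 1.3 µg RNA, and the genome builds GRCm38 and mm10 are from the submitters' processing notes. Aligner, counter and strand setting were not given in the sources used here. Symbols, positions and lengths of merged exons came from GENCODE M21 (54495 genes matched, 37 did not).

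FPKM multiplied by gene length came out as whole reads for 96.7 to 97.0% of the values above 0 (tolerance 0.01). Recovered totals were 14178387 to 16565237 reads a library, at which 1 read over 2 kb is worth 0.0278 to 0.0357 FPKM. One linear model of all 6 libraries was fitted to log2(FPKM + 1) in limma 3.58.1 (R 4.3.3). It had a trended prior variance and no replicate block. The fit was first run on simulated data in which few genes changed. That run does not show how the fit behaves where most genes change, as in KO against WT. Tables and figures used Python 3.11.15, pandas 2.3.3 and matplotlib 3.10.9.

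Alternatives were other pseudocounts, filters and scalings (TPM, median-of-ratios, quantile), fits of the compared groups alone, a replicate block, no trend, voom on recovered reads and each library left out in turn. Leaving out short RNAs was added after seeing the data. The members, lists, tests and alternatives were chosen with earlier results of these data known. Named genes are the members and, from each companion list, the 2 highest in WT, the 2 with the largest change and any that moved against the list, plus Canx, Calr and P4hb. Adam15, Ly6k, Spaca6, single marker genes and neighbours of Tex101 fall outside this rule and were named after their values were seen.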

Additional observations from a re-analysis of the deposited data

How the results depend on the processing

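In KO against WT, the 9 genes other than Tex101 were called lower in each alternative in which they were tested (8 of them with a filter of 5 FPKM, under which Adam1a was too low). Tex101 was called as well, higher with quantile normalization and lower without KO replicate 2, making 10 calls. The median change of the 10 genes (-4.85) moved to -5.46 and -5.32 with pseudocounts of 0.1 and 0.5, -5.17 with a filter of 5 FPKM, -5.10 with voom and -4.42 with quantile normalization. In EE_KO against KO it moved from 4.82 to 5.34, 5.26, 5.11, 5.01 and 4.44 in the same order. Leaving out 1 library gave medians of -4.99 to -4.71 and 4.66 to 4.97, with 9 to 10 genes called, and in EE_KO against WT (main value -0.08) of -0.201 to 0.00460, with 0 called. The ratio of Pdilt to P4hb could not be computed without a pseudocount.

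Tex101 changed direction with TPM, voom and quantile normalization in KO against WT (0.17, 0.12 and 0.54) and in EE_KO against KO (-0.19, -0.14 and -0.49). In EE_KO against WT, uncalled values near 0 changed sign for Clgn with TPM (0.0256), median-of-ratios (0.00400), quantile normalization (0.0657) and voom (0.0200), and with quantile normalization for Adam32 (0.0134) and Tex101 (0.0510). Leaving out 1 library gave -0.276 to 0.103 for Adam18, -0.437 to 0.115 for Adam1a, -0.203 to 0.0689 for Adam32, -0.338 to 0.182 for Calr3, -0.0899 to 0.0712 for Clgn, -0.252 to 0.269 for Pdilt and -0.102 to 0.00400 for Tex101. The cause was not tested.

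With the replicate number as a block, 9, 0 and 9 of the 10 genes were called for KO and for EE_KO against WT and for EE_KO against KO, with medians of -4.85, -0.08 and 4.82, and no call of the 10 genes changed. The deviations of same-numbered libraries correlated at -0.018 (WT and KO), 0.069 (WT and EE_KO) and 0.077 (KO and EE_KO), so the numbers were not taken as pairs. Over all genes, a filter of 5 FPKM left 7804 calls of 13488 in KO against WT and 7762 of 13395 in EE_KO against KO, with 8901 genes tested. In EE_KO against WT 6 genes were called, and 0 to 15 over the alternatives (15 without EE_KO replicate 1, 0 without any other library). With 2 libraries a group, precision is limited, and genes near 1 FPKM rest on few reads.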

Other observations

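The 2 WT libraries differed in opposite directions within the set. Adam1a, Calr3 and Pdilt were higher in WT replicate 2 than in replicate 1, by 0.55, 0.52 and 0.52 on the log2 scale. For Adam2, Adam3, Adam5, Adam18, Adam32 and Clgn the same difference was -0.23, -0.27, -0.23, -0.38, -0.27 and -0.16. For Tex101 it was 0.11. The summed level of the 8 spermatid markers was 1456 FPKM in WT replicate 1 and 2931 in replicate 2. That of the 12 pachytene markers was 5946 and 5370.0. Only Pgk2 (208 and 213 FPKM) and Nme5 (63.5 and 69.2 FPKM) were higher in replicate 2. Piwil1 was level (0.00), and Ldhc (-0.17) and all remaining pachytene markers were lower. In EE_KO the difference between replicates was -0.01 for Adam1a, 0.49 for Calr3, 0.36 for Pdilt and -0.07 for Tex101, and 0.13 to 0.28 for Clgn and the other 5 ADAM genes. These are gaps between single libraries, with no test.

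The surroundings of Tex101 on chromosome 7 were examined after its values were seen. Of 32 genes within 250 kb, 16 were tested in KO against WT, of which 11 fell, 4 rose and Tex101 itself was not called, beside 47.1% of all genes tested called lower and 37.7% called higher. The nearest tested genes were BC049730 on one side, which fell from 119 to 8.59 FPKM (log2 change -3.66, SE 0.15, adjusted p = 1.59e-06), and the DNA repair gene Xrcc1 on the other, which fell from 25.8 to 5.21 FPKM (log2 change -2.12, SE 0.14, adjusted p = 1.01e-05). The protein-coding genes whose pattern over the 6 libraries lay closest to that of Tex101 were Safb (0.102), Cdk11b (0.127), Mvb12a (0.133), Park7 (0.147) and Fkbp8 (0.149).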
